A study of Mus musculus with 6 samples.

Results

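Complement components and regulators were followed in the joint cartilage of mice, knockout (KO) or wildtype. The group was given as 9 genes, matched by gene name in the deposited table of 34709 genes, and each of the 9 was found once. They were C3, C4b, Cfb, Cfp and C1ra (components), the receptor C3ar1, and the regulators Serping1, Cd55 and Cd59a. Cartilage came from male mice aged 18 months, C57BL/6J as wildtype or with the KO, and littermates were used for the comparison of both genotypes in the ageing joint. The KO was not described as limited to cartilage cells, and the labels do not say how many animals entered a library or whether the libraries came from separate animals, so p-values measure only the spread between these samples. There were 3 libraries labelled KO and 3 labelled wildtype, and values of a group are listed in the order of replicates 1, 2 and 3.

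Complement is a cascade of plasma and tissue proteins that marks surfaces for uptake by phagocytes and can open pores in membranes. The classical arm starts when C1q, with the proteases C1r and C1s, cleaves C4 and C2. The alternative arm is fed by C3 and factor B (Cfb), and properdin (Cfp) stabilises its convertase. Serping1 (C1 inhibitor) blocks C1r and C1s, Cd55 speeds the decay of convertases, and Cd59a blocks the membrane pore. In joints, chondrocytes and synovial cells make complement proteins, while properdin and the receptors for C3 fragments are typical of neutrophils and macrophages.

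Total counts per library were between 52268311 and 63331135. Counts were estimates, and low values piled up at 4 (6596 values, against 4170 at 3 and 2332 at 5), so 1 count is not 1 read pair. KO replicates 2 and 3 differed far less than any other pair: their noise ratio, the median squared difference of scaled counts relative to Poisson sampling, was 6.11 for genes with 5000 to 50000 counts, against 73.8 to 603.7 for the other 14 pairs. They were averaged and counted as 1 sample, which left 2 KO and 3 wildtype samples. Principal components were computed on all 6 libraries, with KO replicates 2 and 3 entered separately, which gives their shared pattern more weight. On the first component (45.9% of the variance) the library labelled KO replicate 1 lay at -24.6, within the wildtype range of -26.2 to -23.9, and KO replicates 2 and 3 lay at 50.7 and 49.6. Every KO level below therefore rests on a pair of unlike KO samples, and values are also given without either of them where this matters. Markers of chondrocytes had unlike levels. Col2a1 was at 12.4 to 21.3 FPKM, Acan at 13.2 to 22.8 FPKM and Prg4 at 402 to 1034 FPKM. Others were low, with Sox9 at 0.865 to 2.81, Cnmd at 0.755 to 1.62, Col9a1 at 0.0478 to 0.460 and Matn3 at 0 to 0.202 FPKM. Markers of neutrophils were present and ranged from Cxcr2 at 43.5 to 118 FPKM to S100a9 at 11637 to 27817 FPKM. FPKM, a fragment count scaled to library depth and to transcript length, is a level per length, so that genes can be compared with each other.

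The promoters of the 3 members with the largest log2 differences among those with a RefSeq promoter are shown (GRCm38.p6, 250 bases before to 50 after the annotated start, 5′ to 3′). Capitals mark motif letters, searched on both strands. Of the 9 members, 6 had a promoter there, and C4b, Cfb and Serping1 did not match.
C3 promoter, chr17:57228087-57228386, minus strand: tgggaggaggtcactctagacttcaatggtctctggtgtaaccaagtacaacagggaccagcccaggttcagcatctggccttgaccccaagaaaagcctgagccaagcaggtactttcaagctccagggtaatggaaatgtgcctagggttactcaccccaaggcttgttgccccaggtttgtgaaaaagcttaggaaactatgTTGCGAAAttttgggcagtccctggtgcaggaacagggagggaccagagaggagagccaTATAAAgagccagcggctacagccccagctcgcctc
Cd55 promoter, chr1:130462695-130462994, minus strand: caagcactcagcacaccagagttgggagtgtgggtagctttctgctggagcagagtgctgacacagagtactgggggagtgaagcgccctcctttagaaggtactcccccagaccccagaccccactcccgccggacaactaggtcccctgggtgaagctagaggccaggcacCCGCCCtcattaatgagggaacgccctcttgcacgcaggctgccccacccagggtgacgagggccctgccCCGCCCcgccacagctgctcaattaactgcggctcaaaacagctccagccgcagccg
Cd59a promoter, chr2:104095551-104095850, plus strand: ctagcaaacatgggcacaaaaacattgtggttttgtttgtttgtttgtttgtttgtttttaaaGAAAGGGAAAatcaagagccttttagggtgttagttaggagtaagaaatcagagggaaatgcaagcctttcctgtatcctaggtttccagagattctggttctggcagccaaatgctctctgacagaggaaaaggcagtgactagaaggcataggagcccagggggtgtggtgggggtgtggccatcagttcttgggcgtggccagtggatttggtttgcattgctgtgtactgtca
The C3 sequence held TTGCNNAA (letters of a C/EBP site, in 10.8% of 32851 promoters) at bases 206 to 213 and TATAAA (letters of a core promoter box, 13.6%) at bases 265 to 270, counted from 1 at its left end. These TATAAA letters lay after the annotated start. Cd55 held GGGCGG (a GC box, 35.7%) on the opposite strand at bases 174 to 179 and 244 to 249. Cd59a held GAAA, any 2 bases and GAAA (an interferon-stimulated response element, 3.44%) at bases 64 to 73. The other letters searched were TTCNNNGAA (GAS, 8.30%), a kappaB site (GGG, any 2 bases and TTTCC, 1.63%) and GAGGAAGT (PU.1, 3.202%), and none of these lay in the 3 sequences. No marked stretches overlapped. A match describes letters and was not tested as a binding site.

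To ask which complement genes differed between KO and wildtype cartilage, counts were compared by edgeR's quasi-likelihood test across the 15373 genes whose mean reached 0.5 FPKM. None of the 9 members passed the threshold, a Benjamini-Hochberg adjusted p-value under 0.05 by edgeR, and neither did any other gene (0.0% of all tested). Adjusted p-values of the members ranged from 0.168 to 0.9996. At an unadjusted p-value under 0.05 there were 3 of the 9 members, C3, Cd55 and Cfb, against 13.7% of all tested genes (2106 genes). Of the members, 2 had a log2 difference (KO minus wildtype) above 0 and 7 below, one of them C3ar1 at -0.00065. Of all tested genes, 47.5% were above 0. The median was -0.36 over the members and -0.016 over all tested genes. The FPKM of the 6 libraries did not overlap between the groups in 4 of the 9 members, against 25.0% of all tested genes. These 4 were C3 and Cfp, above wildtype in each KO library, and Cd55 and Cfb, below it in each.

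C3 (ENSMUSG00000024164, chromosome 17, 57203970 to 57228136, minus strand, GRCm38) encodes the protein on which all arms of the cascade converge. It was at 102, 167 and 165 FPKM in the KO libraries, and at 75.5, 59.1 and 72.4 FPKM in the wildtype libraries. Each KO library was above each wildtype library, and KO replicates 2 and 3 were well above KO replicate 1. KO samples averaged 134 ± 45.2 FPKM (SD, n = 2), and wildtype samples averaged 69.0 ± 8.72 FPKM (SD, n = 3), a log2 difference of 0.97 (SE 0.21), or 1.96-fold, with an adjusted p-value of 0.168 by edgeR. C3 was the sole member that passed in some fits. With the 6 libraries as labelled the log2 difference was 1.06 (SE 0.19, adjusted p-value 0.0367 by edgeR), in a fit that called 3.71% of all genes. With DESeq2 on the 5 samples the adjusted p-value was 0.000748, in a fit that called 5.72% of all genes. Without KO replicate 1 the log2 difference was 1.23 (adjusted p-value 0.0358 by edgeR, 2.29% of all genes called), and without KO replicates 2 and 3 it was 0.65 (adjusted p-value 0.408 by edgeR). In both of these fits the remaining KO sample is assumed to vary like the wildtype samples.

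Cfb (ENSMUSG00000090231, chromosome 17, 34856374 to 34862518, minus strand), the protease of the alternative C3 convertase, had a lower level in KO. It was at 4.51, 4.62 and 4.93 FPKM in the KO libraries, and at 10.2, 5.27 and 8.13 FPKM in the wildtype libraries. The KO libraries lay close together and below all wildtype libraries, though wildtype replicate 2 was only slightly above them. The log2 difference was -0.73 (SE 0.26, adjusted p-value 0.278 by edgeR), a level 1.66-fold higher in wildtype. It was -0.74 without KO replicate 1 and -0.71 without KO replicates 2 and 3, and -0.53 without wildtype replicate 1, the library with the highest level. C2, which encodes the matching protease of the classical arm and lies 85 bases from Cfb, was at 0.463, 0.538 and 0.656 FPKM in the KO libraries and at 1.42, 0.610 and 1.43 FPKM in the wildtype libraries. The C2 groups overlapped, and the log2 difference was -1.08 (SE 0.40, edgeR adjusted p-value 0.302). Cfb and C2 were both lowest among wildtype libraries in replicate 2.

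Properdin, encoded by Cfp (ENSMUSG00000001128, chromosome X, 20925454 to 20931555, minus strand), was at 57.3, 62.5 and 63.9 FPKM in the KO libraries and at 41.8, 46.9 and 54.9 FPKM in the wildtype libraries. The groups did not overlap, but the lowest KO library was close to the highest wildtype library. For Cfp the log2 difference was 0.35 (SE 0.15, adjusted p-value 0.370 by edgeR), and it ranged from 0.24 to 0.46 when libraries were left out.

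**Figure D1:**
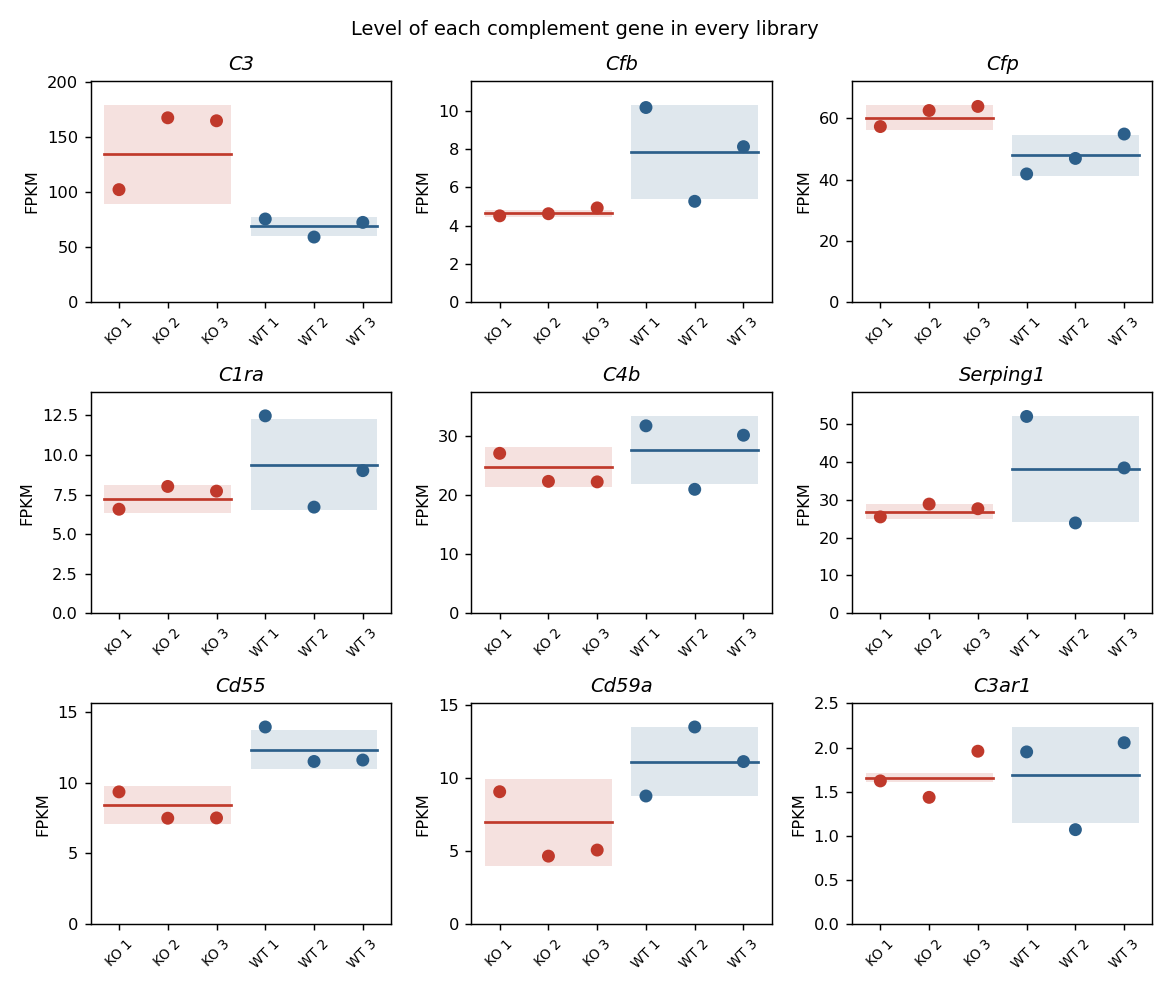
FPKM of the 9 complement genes in each library (points, KO in red and wildtype, WT, in blue), with the group mean (line) and SD (band) over 2 KO samples, KO replicates 2 and 3 being averaged, and 3 wildtype samples. C3 and Cfp are higher in each KO library than in any wildtype library, Cfb and Cd55 are lower, and the other 5 genes overlap.

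The classical-arm members and their inhibitor overlapped between the groups. C1ra (ENSMUSG00000055172, chromosome 6, 124512405 to 124523443, plus strand), a protease of the C1 complex, was at 6.57, 8.01 and 7.71 FPKM in the KO libraries and at 12.5, 6.70 and 9.01 FPKM in the wildtype libraries. Serping1 (ENSMUSG00000023224, chromosome 2, 84765387 to 84775444, minus strand) was at 25.5, 28.9 and 27.7 FPKM in the KO libraries and at 52.1, 23.9 and 38.4 FPKM in the wildtype libraries. Both were highest in wildtype replicate 1 and had their lowest wildtype level in replicate 2, near the KO libraries. C4b (ENSMUSG00000073418, chromosome 17, 34728380 to 34743882, minus strand), the fourth component, was at 27.0, 22.3 and 22.2 FPKM in the KO libraries and at 31.6, 20.9 and 30.0 FPKM in the wildtype libraries. For C1ra the log2 difference was -0.36 (SE 0.24, edgeR adjusted p-value 0.602), and it was -0.13 without wildtype replicate 1 and -0.53 without wildtype replicate 2. For Serping1 it was -0.48 (SE 0.27, adjusted p-value 0.522), and without wildtype replicate 1 it was -0.21. For C4b it was -0.13 (SE 0.20, adjusted p-value 0.864), and it was 0.059 without KO replicates 2 and 3.

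Serping1, C1ra and C1s1, the partner protease of C1r, had similar proportions in all libraries. Within a library the FPKM ratio of Serping1 to C1ra was 3.58 to 3.88 in KO and 3.56 to 4.27 in wildtype. The ratio of C1ra to C1s1 was 0.783 to 0.959 in KO and 0.747 to 0.878 in wildtype. C1s1 itself was at 8.39, 8.35 and 8.74 FPKM in the KO libraries and at 15.0, 7.64 and 12.1 FPKM in the wildtype libraries. The ranges of both ratios thus overlapped although the levels differed between wildtype libraries. The choice of these pairs followed a look at their values.

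Among membrane regulators, neither Cd55 nor Cd59a passed the threshold. Cd55 (ENSMUSG00000026399, chromosome 1, 130439027 to 130462744, minus strand), or decay-accelerating factor, was at 9.34, 7.48 and 7.51 FPKM in the KO libraries and at 13.9, 11.5 and 11.6 FPKM in the wildtype libraries. The groups did not overlap, and KO samples averaged 8.42 ± 1.31 FPKM (SD, n = 2), against 12.3 ± 1.38 FPKM (SD, n = 3) for wildtype samples. The log2 difference was -0.52 (SE 0.17, adjusted p-value 0.246 by edgeR), a level 1.44-fold higher in wildtype. It was -0.75 without KO replicate 1 and -0.32 without KO replicates 2 and 3. Cd59a (ENSMUSG00000032679, chromosome 2, 104095801 to 104115354, plus strand), which protects cells from the membrane pore, was at 9.07, 4.67 and 5.08 FPKM in the KO libraries and at 8.78, 13.5 and 11.1 FPKM in the wildtype libraries. KO replicates 2 and 3 were below all other libraries, while KO replicate 1 was above wildtype replicate 1. The log2 difference was -0.65 (SE 0.34, edgeR adjusted p-value 0.471). It was -1.23 without KO replicate 1 and -0.22 without KO replicates 2 and 3. Cr1l and Cd46, membrane regulators outside the 9 that were named after their values were seen, overlapped between the groups. Cr1l was at 7.36, 8.41 and 7.998 FPKM in the KO libraries and at 8.01, 7.42 and 7.42 FPKM in the wildtype libraries, a log2 difference of 0.05 (SE 0.11). Cd46 was at 0.840 to 1.08 FPKM in KO and 0.872 to 1.03 FPKM in wildtype, a log2 difference of -0.0040 (SE 0.21).

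C3ar1 (ENSMUSG00000040552, chromosome 6, 122847138 to 122856161, minus strand), which encodes the receptor of the fragment C3a, had the lowest level of the 9. It was at 1.62, 1.44 and 1.96 FPKM in the KO libraries and at 1.95, 1.07 and 2.06 FPKM in the wildtype libraries. The groups overlapped throughout. Its log2 difference was -0.00065 (SE 0.29, adjusted p-value 0.9996 by edgeR). KO replicates 2 and 3, otherwise nearly alike, differed more, in proportion, for this gene than for any other member (1.44 against 1.96 FPKM).

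**Figure D2:**
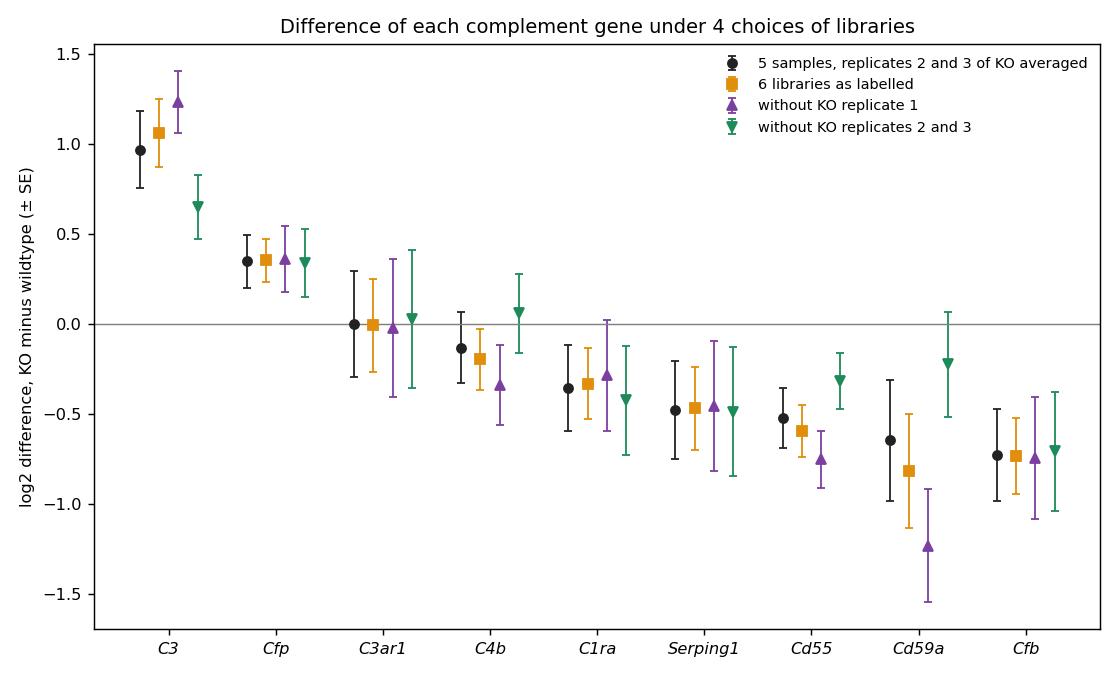
Log2 difference of each member (KO minus wildtype, points, with SE bars) by edgeR with 4 choices of libraries. C3 lies above 0 under all 4, at 0.65 to 1.23, Cd59a moves from -1.23 without KO replicate 1 to -0.22 without KO replicates 2 and 3, and Cfb is at -0.74 and -0.71 in these fits.

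By the wildtype mean, the order of levels was C3 (69.0 FPKM), Cfp (47.9), Serping1 (38.1), C4b (27.5), Cd55 (12.3), Cd59a (11.1), C1ra (9.39), Cfb (7.86) and C3ar1 (1.69). The wildtype ranges of C3 and Cfp were separate, as were those of C4b and Cd55 and those of Cfb and C3ar1. Cfp, Serping1 and C4b overlapped with their neighbours, and so did Cd55, Cd59a, C1ra and Cfb. Because the differences of C3 and of Cd55 and Cfb had opposite signs, their proportion within a library was compared. The FPKM ratio of C3 to Cd55 was 10.9, 22.4 and 22.0 in the KO libraries, against 5.43, 5.15 and 6.25 in the wildtype libraries. The ratio of C3 to Cfb was 22.6, 36.2 and 33.4 in KO and 7.42, 11.2 and 8.91 in wildtype. Neither ratio overlapped between the groups, but this was fixed in advance. C3 was above wildtype in each KO library, while Cd55 and Cfb were below it in each. No test is given, since these pairs, too, were picked on their values.

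Near copies were examined because reads could be split between them. Of the windows of 150 bases along the longest coding transcript (GENCODE M21), 26.3% of C1ra were found exactly in C1rb, 8.26% of C4b in C4a, 2.81% of Cd55 in Cd55b and 0 of 1657 of Cd59a in Cd59b. C1rb was at 0.664, 0.914 and 0.668 FPKM in the KO libraries and at 1.59, 0.560 and 1.65 FPKM in the wildtype libraries. Values of C1ra and C1rb are therefore uncertain relative to each other. C4a was at 0.365 to 0.611 FPKM and Cd55b at 0 to 0.320 FPKM, and both were under the limit for testing. Cd59b, the second mouse gene for this inhibitor, was at 1.78, 0.738 and 0.783 FPKM in the KO libraries and at 1.59, 2.49 and 2.33 FPKM in the wildtype libraries, so that KO replicates 2 and 3 were again the lowest. The ratio of Cd59a to Cd59b overlapped between the groups, at 5.08 to 6.49 in KO and 4.78 to 5.53 in wildtype. Genes that share positions with a member had low levels, since Gm20547 and Mir6972 (both across Cfb) had means of 0.00749 and 0.540 FPKM, and Gm16083 (opposite Cd55) had a mean of 0.0539 FPKM.

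A further list of 47 complement genes was drawn up, of which 43 were in the table and 27 reached the limit for testing. Of these 27, 0 passed the adjusted threshold by edgeR (lowest adjusted p-value 0.168). The log2 difference was above 0 in 9, against 47.5% of all tested genes, and below in 18, with a median of -0.28. At an unadjusted p-value under 0.05 there were 10 genes, 5 higher and 5 lower in KO, against 13.7% of all tested genes, and in 11 of the 27 the groups did not overlap, against 25.0%. With the 6 libraries as labelled 4 genes passed (3.71% of all genes), Itgam, Itgb2, C5ar1 and C1rl, and the same 4 passed without KO replicate 1 (2.29% of all genes). With DESeq2 on the 5 samples 6 passed (5.72% of all genes), these 4 together with Fcnb and Cr2.

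Itgam and Itgb2 had higher levels in each KO library. They form complement receptor 3, which binds the C3 fragment iC3b. Itgam was at 83.3, 154 and 153 FPKM in the KO libraries and at 57.4, 58.0 and 64.2 FPKM in the wildtype libraries. Itgb2 was at 144, 222 and 223 FPKM in KO and at 110.1, 106 and 116 FPKM in wildtype. In both, KO replicate 1 was nearest to wildtype, as for C3. The log2 difference was 0.99 (SE 0.24, adjusted p-value 0.175 by edgeR) for Itgam and 0.74 (SE 0.19, adjusted p-value 0.186) for Itgb2. C5ar1, the receptor for C5a, differed by 0.85 on the log2 scale (SE 0.21, adjusted p-value 0.177), and C1rl, a relative of C1r, by 1.11 (SE 0.25, adjusted p-value 0.168). Other receptors of phagocytes were mixed. Itgax was at -0.05 (adjusted p-value 0.973), Cd93 at -0.11 (adjusted p-value 0.887) and Vsig4 at -0.92 (adjusted p-value 0.321) on the log2 scale. The receptor C5ar2 was above wildtype in each KO library, with 3.75, 4.43 and 4.29 FPKM in KO against 3.64, 3.13 and 2.83 FPKM in wildtype. On the log2 scale C5ar2 was 0.36 higher in KO, and edgeR gave it an adjusted p-value of 0.446. Itgax, Cd93 and C5ar2 were named after their values were seen.

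The lectin-arm ficolins had differences of opposite sign. Fcnb, a ficolin of granulocyte precursors and monocytes, was at 311, 265 and 263 FPKM in the KO libraries and at 138, 195 and 138 FPKM in the wildtype libraries. Fcnb differed by 0.89 on the log2 scale (SE 0.22, edgeR adjusted p-value 0.182). Fcna, a ficolin of macrophages, was at 29.4, 19.4 and 20.96 FPKM in KO and at 32.9, 40.5 and 59.2 FPKM in wildtype. The log2 difference was -0.81 (SE 0.30, adjusted p-value 0.296). Neither gene overlapped between the groups. The other genes on the lower side at an unadjusted p-value under 0.05 were Cr2, a receptor of B cells (-1.06, SE 0.34), Vsig4, a macrophage receptor for C3b (-0.92, SE 0.36), C2, and Cfd, the alternative-arm protease made by fat cells (-3.24, SE 1.25). Cfd was at 8.01, 0.583 and 0.470 FPKM in the KO libraries and at 84.6, 8.98 and 34.4 FPKM in the wildtype libraries, so the libraries of a group differed several-fold.

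Among the most abundant of these genes, C1qa, C1qb and C1qc, the chains of C1q, were at 58.2 to 93.1, 70.9 to 104.7 and 31.2 to 48.0 FPKM in KO and at 85.1 to 115, 98.5 to 125 and 47.6 to 63.4 FPKM in wildtype. Their log2 differences were -0.36, -0.31 and -0.39, with adjusted p-values of 0.601, 0.596 and 0.548 by edgeR. Clu, or clusterin, an inhibitor of the membrane pore, was at 139, 66.0 and 67.5 FPKM in the KO libraries and at 69.9, 79.4 and 90.0 FPKM in the wildtype libraries, so KO replicate 1 stood above the rest. The terminal components were near the bottom of the range: Hc (C5) was at 0.0669 to 0.392 FPKM, C6 at 0.530 to 1.55, C7 at 0 to 0.347, C8a at 0 to 0.0451 and C8g at 0.866 to 1.47 FPKM over the 6 libraries. C8b, C9, Mbl2 and Colec10, from the further list, were not found by name in the deposited table.

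**Figure D3:**
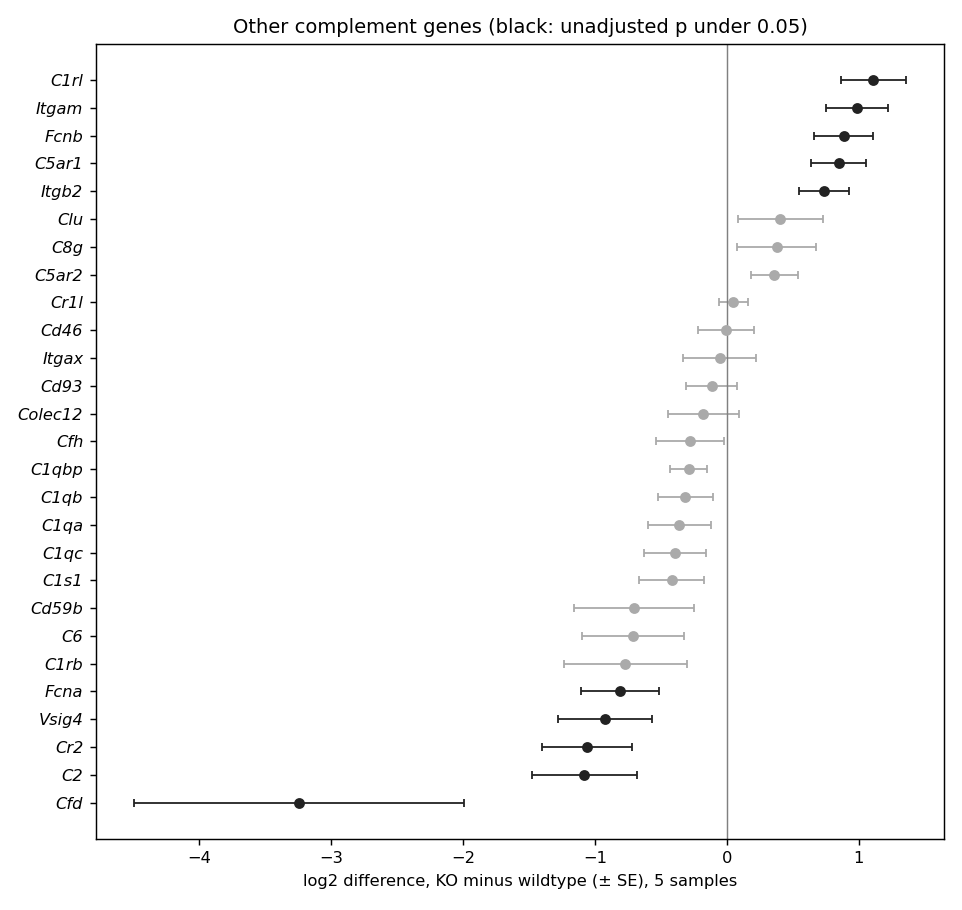
Log2 difference (KO minus wildtype, 5 samples, SE bars) of the 27 other complement genes tested, ordered by size, with those at an unadjusted p-value under 0.05 in black. C1rl, Itgam, Fcnb, C5ar1 and Itgb2 lie at 0.74 to 1.11, Fcna, Vsig4, Cr2 and C2 at -1.08 to -0.81, and Cfd at -3.24.

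Because these are bulk libraries, fewer cells of a type and less RNA per cell cannot be told apart, and summed FPKM of marker genes were set beside the members. Of all 15373 tested genes, 1740 were above wildtype in each KO library and 2105 below it in each, as a measure for the counts that follow. Neutrophil markers (10 of 10 in the table, 0 of them at 0 in all libraries) summed to 43224 to 54715 FPKM in KO and 23109 to 38653 in wildtype, and 9 of the 10 were above wildtype in each KO library. Monocyte and macrophage markers (10 of 10) summed to 362 to 445 FPKM in KO and 289 to 312 in wildtype, but 3 of the 10 were below wildtype in each KO library and 1 above. Erythroid markers (7 of 8 in the table) summed to 641 to 882 FPKM in KO and 1118 to 1573 in wildtype, and all 7 were below wildtype. B cell markers (8 of 8) summed to 84.5 to 134 FPKM in KO and 270.1 to 301.2 in wildtype, and all 8 were below wildtype. Marrow stromal markers (6 of 6) summed to 118 to 151 FPKM in KO and 192 to 263 in wildtype, with 4 of the 6 below. T and NK cell markers (6 of 6) summed to 87.3 to 109 FPKM in KO and 64.9 to 76.7 in wildtype, with 1 of the 6 above and 2 below. Single genes carried 2 of these sums. Without Nkg7 the other 5 T and NK cell markers summed to 8.56 to 9.67 FPKM in KO and 9.65 to 15.0 in wildtype. Without Ly6c2 the other 9 monocyte and macrophage markers summed to 144 to 197 FPKM in KO and 146 to 187 in wildtype, so the groups overlapped in both of these shorter sums.

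Sums of the other lists overlapped between the groups. Chondrocyte markers (12 of 12) summed to 1443 FPKM in KO replicate 1, to 636 and 645 FPKM in the others of that group, and to 612 to 834 FPKM in wildtype. Fibroblast (8 of 8), endothelial (6 of 6) and osteoblast and osteocyte markers (6 of 6) summed to 370.4 to 420.3, 21.4 to 24.0 and 412 to 610 FPKM in KO and to 295 to 710, 22.7 to 38.5 and 415 to 1030 FPKM in wildtype. No chondrocyte marker lay apart between the groups, 1 fibroblast marker lay above and 1 below wildtype, and 1 endothelial and 1 osteoblast marker lay below. Matn3, a chondrocyte marker, was at 0 in 3 of the 6 libraries, and every other marker in the table had a value above 0 in all 6. The part of these markers in the differences of the complement genes was not tested.

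Ratios to genes of phagocyte surfaces gave a further description. The FPKM ratio of C3 to Itgam was 1.23, 1.09 and 1.08 in the KO libraries, against 1.32, 1.02 and 1.13 in the wildtype libraries, so the groups overlapped. The ratio of Cfp to Itgam was 0.688, 0.406 and 0.418 in KO and 0.729, 0.808 and 0.854 in wildtype, without overlap and lower in KO, where the level of Cfp itself was higher. C3ar1 relative to Csf1r, the receptor that defines monocytes and macrophages, was 0.0403 to 0.0708 in KO and 0.0504 to 0.0748 in wildtype. Again the pairs were picked on their values.

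**Figure D4:**
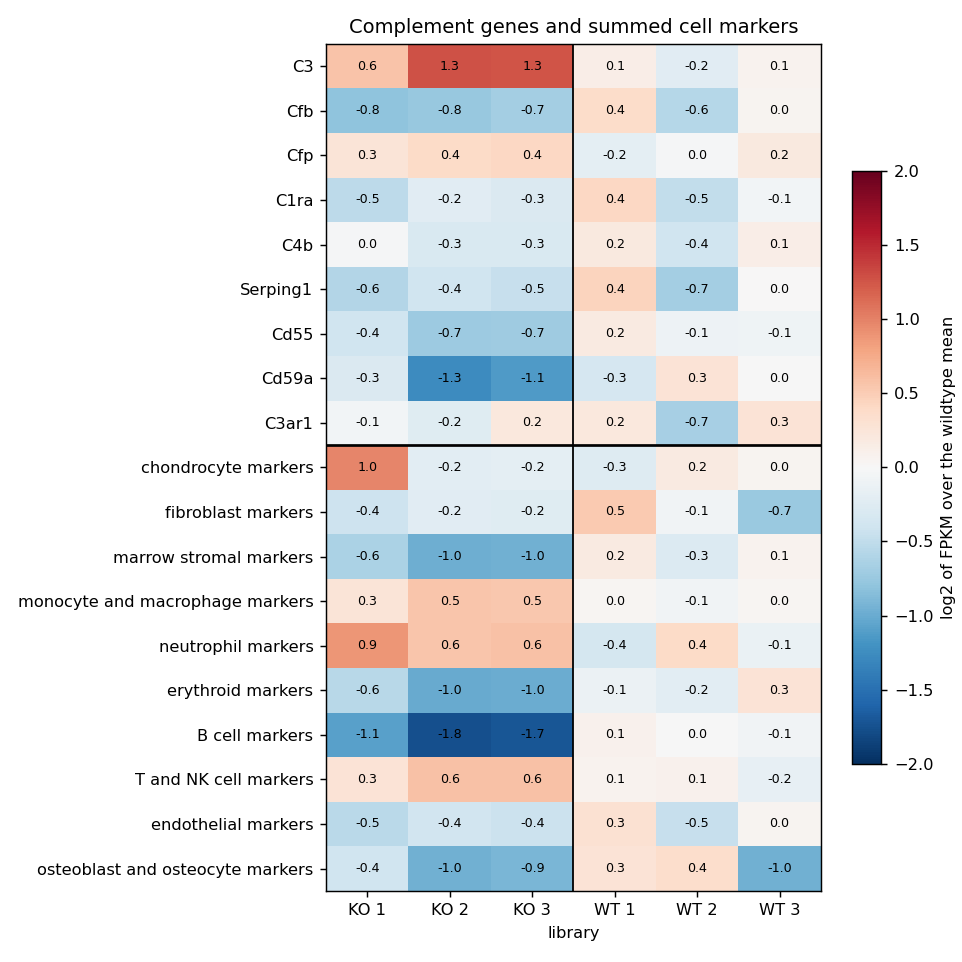
Log2 of the FPKM of each member (upper rows) and of the summed FPKM of each marker list (lower rows) over its wildtype mean, in the 6 libraries (red above and blue below the wildtype mean). The B cell, erythroid and marrow stromal rows are lower and the neutrophil row higher in all KO libraries, and KO replicate 1 differs from KO replicates 2 and 3 most in the chondrocyte row.

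**Figure D5:**
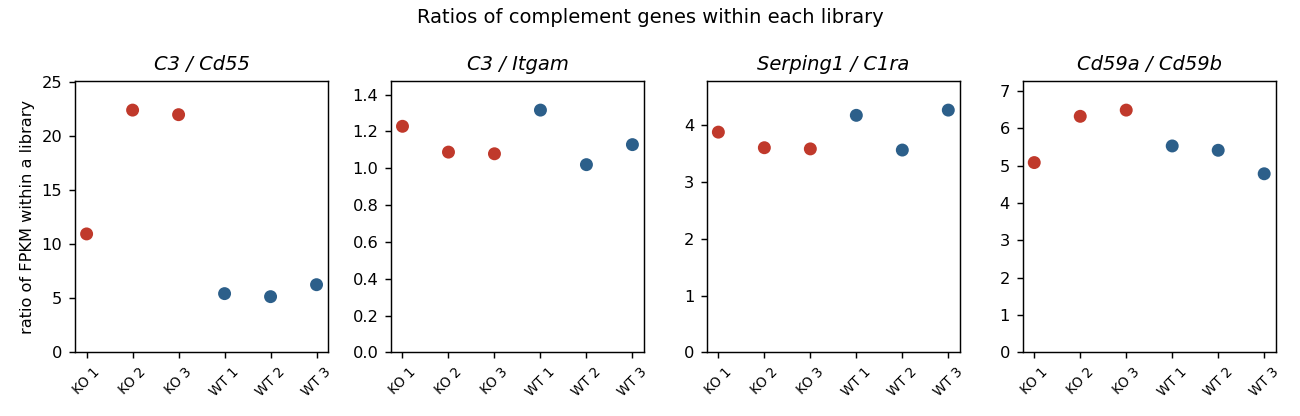
Ratio of FPKM within each library (points, KO in red and wildtype, WT, in blue) for 4 pairs of genes, with axes from 0. C3 to Cd55 is 10.9 to 22.4 in KO and 5.15 to 6.25 in wildtype, a separation fixed by the levels of these genes. C3 to Itgam, Serping1 to C1ra and Cd59a to Cd59b overlap between the groups.

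Genes whose pattern over the 5 samples was most like that of a member were sought for the 3 members with the largest spread, C3, Cd59a and Serping1. Likeness was the root mean square difference of log2(FPKM + 1), each gene centred on its own mean, among 7606 genes of at least 5 FPKM. For C3 these were Mtus1 (0.0823), Ugt1a7c (0.0828) and Ighv10-3 (0.0905), of which the latter pair belong to families with close copies. For Cd59a they were Snhg8 (0.0935), Sec61g (0.0976) and Gm10177 (0.110). For Serping1 they were Trim34a (0.0567), the complement gene C1s1 (0.0825) and Slfn8 (0.106). Trim34a, like Serping1, was highest in wildtype replicate 1 at 15.9 FPKM and lowest in wildtype replicate 2 at 6.90 FPKM, with KO libraries at 7.52 to 7.79 FPKM.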

How the data were processed

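RNA-seq libraries of articular cartilage (3 KO, 3 wildtype, grouped by sample titles) had been made from poly(A) RNA with the second strand removed and with adapters carrying molecular identifiers. Per the labels, the authors' processing tools were cutadapt 1.9, HISAT2 2.0.4, UMI-tools, StringTie 1.3.4d, DESeq2 and edgeR, with no roles given. Their build is not given in the sources used here, and positions of the members matched GRCm38. The authors deposited estimated counts, already whole, and FPKM values computed within each library. Total counts were 52268311 to 63331135 per library, so counting error matters mainly for genes of low counts. Each column carried the name of 1 sample, and 0 columns of other samples were present. Whether counting used strand is not given.

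Counts were tested with edgeR 4.0.16 (R 4.3.3), quasi-likelihood, TMM scaling, Benjamini-Hochberg adjustment over all tested genes, on 5 samples with KO replicates 2 and 3 averaged. Each SE is the log2 difference divided by the square root of F. The scripts were tested on simulated data. Alternatives were 6 libraries as labelled, a replicate block, DESeq2 1.42.0, limma 3.58.1 on log2(FPKM + 1) and log2(FPKM + 0.1), median-of-ratios scaling, no filter, a minimum of 5 FPKM and each library left out. Counts divided by 4 were added after seeing the data.

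The members and lists were chosen with earlier results of these data known. Named genes were all members, their near copies, other complement genes with an unadjusted p-value under 0.05 (at least 5) or among the 5 highest in mean FPKM, and the 3 genes nearest in pattern to each of 3 members. Other genes were named after their values were seen. The gene that was disrupted is not reported.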

Additional observations from a re-analysis of the deposited data

How the results depend on the processing

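The 9 members were given by 143 values under the alternatives. Of these, 129 kept their direction and their side of the threshold, 3 kept their direction and passed it, and 11 changed sign. The 3 belong to C3, at 1.06 with the 6 libraries as labelled, 0.98 with DESeq2 and 1.23 without KO replicate 1, and over all alternatives its adjusted p-value ranged from 0.000748 to 0.487. C3ar1 changed sign, around 0, at 0.0103 with DESeq2, 0.0037 and 0.0247 with limma at pseudocounts of 1 and 0.1 FPKM, 0.0105 with median-of-ratios scaling, 0.0369 without a filter, 0.0282 with the replicate block and 0.0287 without KO replicates 2 and 3, and ranged from -0.23 to 0.18 with each library left out. C4b was at 0.059 without KO replicates 2 and 3. It ranged from -0.34 to 0.059 with libraries left out.

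The number of members called was 0, and 1 (C3) with the 6 libraries as labelled and with DESeq2, and it ranged from 0 to 1 with each library left out. For the other complement genes it was 0, 4 with the 6 libraries as labelled, 6 with DESeq2, and 0 to 4 with each library left out. Over all genes it was 0, 570 with the 6 libraries as labelled, 880 with DESeq2, 21 without a filter, 9 without KO replicates 2 and 3, and 0 to 352 with each library left out, the highest being without KO replicate 1. With a single KO sample the spread is that of the wildtype samples. The cause of the differences between tools was not tested. With the replicate block on the 6 libraries, 0 genes passed (2809 at an unadjusted p-value under 0.05 by edgeR), and C3 was at 1.04 with an adjusted p-value of 0.103 by edgeR. Deviations of same-numbered libraries from their group means had correlations across genes of -0.14, -0.11 and -0.058. KO replicates 2 and 3 were nearly alike and so had nearly the same deviations, and these values cannot settle pairing. The numbers were not taken as pairs. With a minimum of 5 FPKM there was no value for C3ar1. By CPM, which ignores length, 4 of the 9 members held the same rank in wildtype as by FPKM.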

Other observations

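Cfd, the alternative-arm protease of fat cells, was read beside Adipoq, the adiponectin gene of fat and marrow stromal cells, after their values were seen. Adipoq was at 18.9, 10.3 and 10.2 FPKM in the KO libraries and at 55.8, 32.1 and 48.2 FPKM in the wildtype libraries, with a log2 difference of -1.60 (adjusted p-value 0.166 by edgeR). Both genes were highest in wildtype replicate 1, next in wildtype replicate 3 and lowest in KO replicates 2 and 3.

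The FPKM ratio of C4b to its near copy C4a was 44.2, 44.2 and 47.3 in the KO libraries, against 60.9, 57.2 and 66.5 in the wildtype libraries, without overlap. C4a had 139 to 224 counts per library, and shared sequence leaves this ratio uncertain.

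Hc, which encodes C5 and was under the limit for testing, was at 0.261, 0.312 and 0.392 FPKM in the KO libraries and at 0.0807, 0.0669 and 0.102 FPKM in the wildtype libraries, that is 97 to 174 counts in KO libraries and 27 to 41 in wildtype libraries.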
